A study of Mus musculus with 70 samples.

Results

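The lungs of untreated female B6C3F1 mice that were gavaged with distilled water were compared with the lungs of untreated mice that were only fed rodent chow. The 8 arrays were chosen from the sample labels, as the 4 arrays with the title code WCON and the 4 with the code FCON whose animal identifier starts with the number 2, called set 2 here. They are 8 of the 70 arrays of the series, and 52 arrays belong to set 2. Water controls received distilled water at 5 ml/kg by gavage on 5 days per week for 13 weeks, and feed controls ate chow on 7 days per week for the same 13 weeks. Neither group received a chemical, and all 8 animals were females aged 18 weeks, killed with pentobarbital and exsanguination. Each array held RNA from the right lung lobe of 1 animal, on an Affymetrix mouse expression array. The labels do not say whether feed controls were handled or sham-gavaged, so gavage, handling, water and the rest of the feeding routine cannot be told apart.

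Gavage places a liquid into the stomach through a tube passed down the oesophagus, and it is a common vehicle route in toxicity studies. The mouse lung holds alveolar epithelium, conducting airways with club and ciliated cells, a dense capillary bed, elastic and collagen fibres, smooth muscle and resident macrophages. RNA from a lobe is a mixture of all of these, so fewer cells of a type and less RNA per cell cannot be told apart in any value below. Values are the deposited log2 probe set signals, so a difference of 1 is a 2-fold change. Lung markers were high in both groups: the surfactant protein gene Sftpb had a mean signal of 13.19 in water controls and 12.91 in feed controls.

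Of 14593 genes tested with limma, 4924 were called at a Benjamini-Hochberg adjusted p under 0.05, which is 33.7% of the genes. In water controls 2264 genes were higher (15.5%) and 2660 were lower (18.2%). At an unadjusted p under 0.05 there were 6566 genes. For 4325 genes, 29.6% of those tested, the 4 water values and the 4 feed values did not overlap. The falls were larger than the rises. Among called genes, the median difference was 0.40 for those higher and -0.68 for those lower. Of the called genes 594 were lower by 1 log2 unit or more, and 5 were higher by that much. The median over all genes tested was 0.08. When each array was centred on its own median, 5928 genes were called and 60.6% of them were higher, against 46% without centring.

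The number of calls rested strongly on single arrays. Water control 2-124 and feed control 2-42 lay at opposite ends of these 8 arrays on the first principal component of set 2, which held 32.3% of the variance. Their scores were 53.3 and -36, against a group mean of 33.6 in water controls and -15.1 in feed controls. Without 2-124 the count was 3066, without 2-42 it was 3067, and without both it was 1340, of which 384 were higher and 956 lower. The labelled volume of RNA sent for hybridisation was 15 ul for all 4 water controls and for feed controls 2-43 and 2-45, and 10 ul for feed controls 2-42 and 2-44. The labelled optical density of the RNA was 0.65 and 0.335 for 2-42 and 2-44, and 2.623 to 4.017 for the other 6 arrays. With arrays of 15 ul only, 4 water controls against 2 feed controls, 2 genes were called and 3685 had an unadjusted p under 0.05. This fit also loses 2 of the 4 feed controls. All 4924 genes kept their sign, but they had been called with these same arrays, so the kept signs are no separate support. With the amount as a block within set 2, which keeps all arrays, 3666 genes were called. The 3' minus 5' signal averaged over Actb and Gapdh, which grows as RNA is degraded, also separated the groups. The labelled RNA integrity number did not: it was 8.1, 8.2 and 7.9 for 3 water controls and 7.8 and 8.1 for 2 feed controls, and was not given for the others. The 3' minus 5' difference was 0.116 ± 0.0388 (SD, n = 4) in water controls and 0.287 ± 0.0793 (SD, n = 4) in feed controls. Its p in an exact two-sided permutation test was 0.0286, the smallest that 4 against 4 arrays allow. With this difference as a covariate, 4499 genes were called. The part of RNA amount and integrity in the single genes below was not tested beyond these fits.

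**Figure D1:**
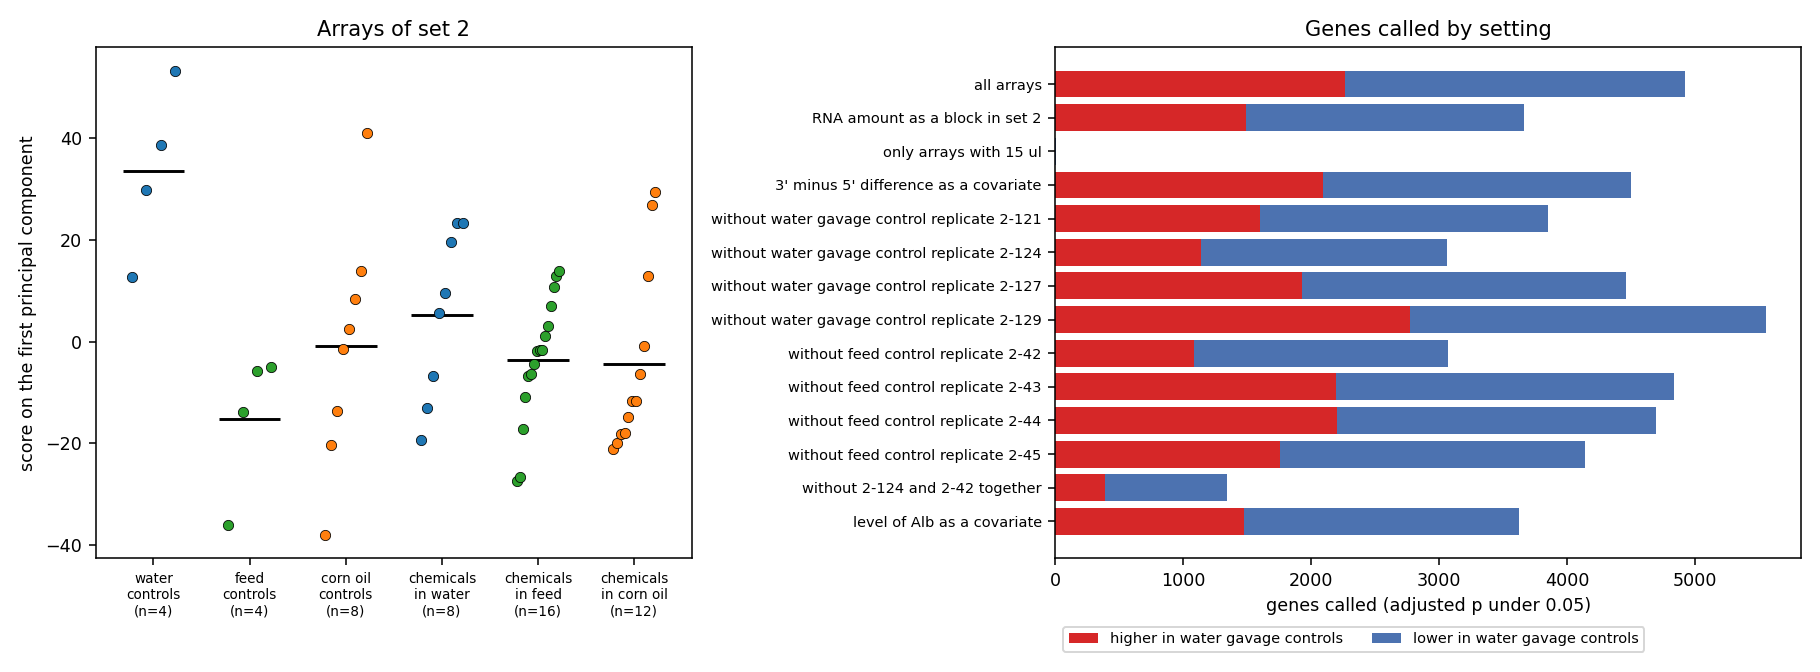
Left, score of each array of set 2 (points) on the first principal component by group, with the group mean as a bar; right, number of genes called at an adjusted p under 0.05 under each setting, split by direction. Water controls have the highest group mean, 33.6, and the count falls from 4924 to 1340 when 2-124 and 2-42 are both left out and to 2 when arrays with 15 ul alone are used.

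The largest differences of all were in 2 cytochrome P450 genes known from the liver, where their products oxidise drugs and other foreign compounds. Cyp3a11, the main Cyp3a enzyme of mouse liver, and Cyp2c29, a Cyp2c enzyme of mouse liver, are textbook targets of the nuclear receptors PXR and CAR. These receptors bind DNA, paired with RXR, at repeats of a half-site related to AGGTCA. The promoters of both genes are printed from RefSeq (build GRCm38.p6, 250 bases before to 50 bases after the gene's start, 5′ to 3′), to show where such half-sites lie. The Cyp3a11 window is chr5:145879805-145880104 on the minus strand, and the Cyp2c29 window is chr19:39286835-39287134 on the plus strand. Capitals mark matches to AGGTCA and AGTTCA on either strand.
Cyp3a11: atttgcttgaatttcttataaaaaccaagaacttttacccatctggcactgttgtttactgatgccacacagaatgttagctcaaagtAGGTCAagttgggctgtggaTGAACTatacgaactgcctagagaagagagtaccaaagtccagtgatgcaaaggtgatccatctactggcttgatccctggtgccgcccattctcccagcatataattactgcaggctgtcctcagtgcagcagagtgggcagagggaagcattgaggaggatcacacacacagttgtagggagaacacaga
Cyp2c29: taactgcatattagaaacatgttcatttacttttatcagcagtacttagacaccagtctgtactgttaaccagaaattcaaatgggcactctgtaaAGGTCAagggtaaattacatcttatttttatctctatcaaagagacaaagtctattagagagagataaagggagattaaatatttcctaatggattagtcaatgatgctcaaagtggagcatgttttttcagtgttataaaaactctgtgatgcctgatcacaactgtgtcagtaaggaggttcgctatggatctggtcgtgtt

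In the Cyp3a11 window AGGTCA began 162 bases and a reverse-strand match to AGTTCA began 142 bases upstream of the gene's start. In the Cyp2c29 window AGGTCA began 154 bases upstream. The matches do not overlap each other. Among 32851 promoter windows of this length, 16.3% held AGGTCA and 14% held AGTTCA, so a match alone is common.

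Cyp3a11 signals were 4.40, 3.81, 4.82 and 4.09 in the water controls and 8.62, 9.52, 7.58 and 8.99 in the feed controls. The groups did not overlap, and the lowest feed control, 2-44, was well above the highest water control, 2-127. The fitted difference was -4.40 ± 0.87 (SE), with a limma adjusted p of 0.000178. Cyp2c29 signals were 4.29, 4.36, 4.19 and 4.21 in the water controls and 8.17, 9.24, 7.38 and 7.73 in the feed controls. Its difference was -3.87 ± 0.57 (SE), with a limma adjusted p of 2.12e-05. The water means of 4.28 and 4.26 lie at the level of 4.25 under which genes were left out as too low, so no fold is given. The feed controls spread over more than 1 unit. Both genes have close paralogs, and the signal of a short-probe array could come in part from them.

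Feed controls outside set 2 did not show the high level. In the 3 feed controls of set 1, Cyp3a11 lay between 3.57 and 3.65 and Cyp2c29 between 3.56 and 3.94. Their signal of the serum albumin gene Alb was lower too, at 5.02 to 5.75, beside 8.92 to 11.17 in the feed controls of set 2. In the 8 corn oil gavage controls of set 2, which share the gavage routine but not the vehicle, Cyp3a11 ranged from 3.55 to 7.80 with a median of 4.06. Cyp2c29 there ranged from 3.84 to 5.54 with a median of 4.16. Water minus corn oil was -0.56 for Cyp3a11 (limma adjusted p = 0.595) and -0.14 for Cyp2c29 (limma adjusted p = 0.851).

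Markers of hepatocytes were measured beside the P450 genes. Alb, which encodes serum albumin, had signals of 7.46, 7.20, 8.60 and 8.70 in water controls and 9.73, 11.17, 8.92 and 10.03 in feed controls. The groups did not overlap, but the difference of -1.97 ± 0.85 (SE) had a limma adjusted p of 0.0653. Of 10 tested hepatocyte markers, 1 was called lower and 0 higher, beside 18.2% of all genes called lower, and the median difference of the list was -0.91 beside 0.08 over all genes. The called member was Fgb, the fibrinogen beta chain, at -1.14 ± 0.44 (SE) with a limma adjusted p of 0.0395, which was 0.427 with the level of Alb as a covariate and 0.172 without feed control 2-43. Fga, the fibrinogen alpha chain, had a difference of -1.57 (limma adjusted p = 0.08). Apoa2, an apolipoprotein of high-density lipoprotein, had -1.58 (limma adjusted p = 0.083). On a log2 scale the summed signal of the hepatocyte markers was 9.71 to 10.4 in water controls and 10.3 to 12.4 in feed controls. Over the 10 markers the differences ran from -1.97 to 0.17, so not all were below 0. Alb, Fga and Apoa2 are named after their values were seen.

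The P450 differences were larger than those of the hepatocyte markers named here. The water means of Fgb and Fga, 3.94 and 4.29, also lay near the filter level of 4.25, so the size of their falls may be cut short. No water gavage array of set 2 reached the Alb level of the lowest feed control (8.92), 0 of 12 with the chemical groups included, so water and feed controls could not be compared at matched Alb. Of 20 corn oil gavage arrays 5 reached it, 3 of them from chemical groups, with Alb up to 11.18. On these 5 arrays Cyp2c29 was 4.77 to 5.82, below all 4 feed controls, and Cyp3a11 was 7.03 to 7.80, which overlapped the lowest feed control at 7.58. Feed arrays at that Alb level could be as low: on 12 of the 16 arrays of chemicals in feed, Cyp2c29 ran from 4.57 to 8.15 and Cyp3a11 from 5.62 to 8.99, and 4 of these 12 had Cyp2c29 at or below 5.82. With the level of Alb as a covariate over all arrays, chosen after seeing the data, Cyp3a11 was lower at -2.53 and Cyp2c29 at -2.88, both with a limma adjusted p of 8.15e-06. With arrays of 15 ul only, Cyp2c29 was called at -4.22 (limma adjusted p = 0.000444) and Cyp3a11, at -4.97, was not (limma adjusted p = 0.0769). Feed controls 2-43 and 2-45, kept in this fit, had the highest Alb of the 4 feed controls, at 11.17 and 10.03. The other gene called with 15 ul only was Gstm3, a glutathione transferase. Its signals were 6.11, 6.11, 6.23 and 6.18 in water controls and 6.86, 8.56, 6.75 and 7.26 in feed controls, a difference of -1.20 ± 0.23 (SE) with a limma adjusted p of 0.000152. The Gstm3 values of the water controls were close together and below all feed controls, and feed control 2-43, which was also highest for Cyp3a11, Cyp2c29 and Alb, was highest.

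**Figure D2:**
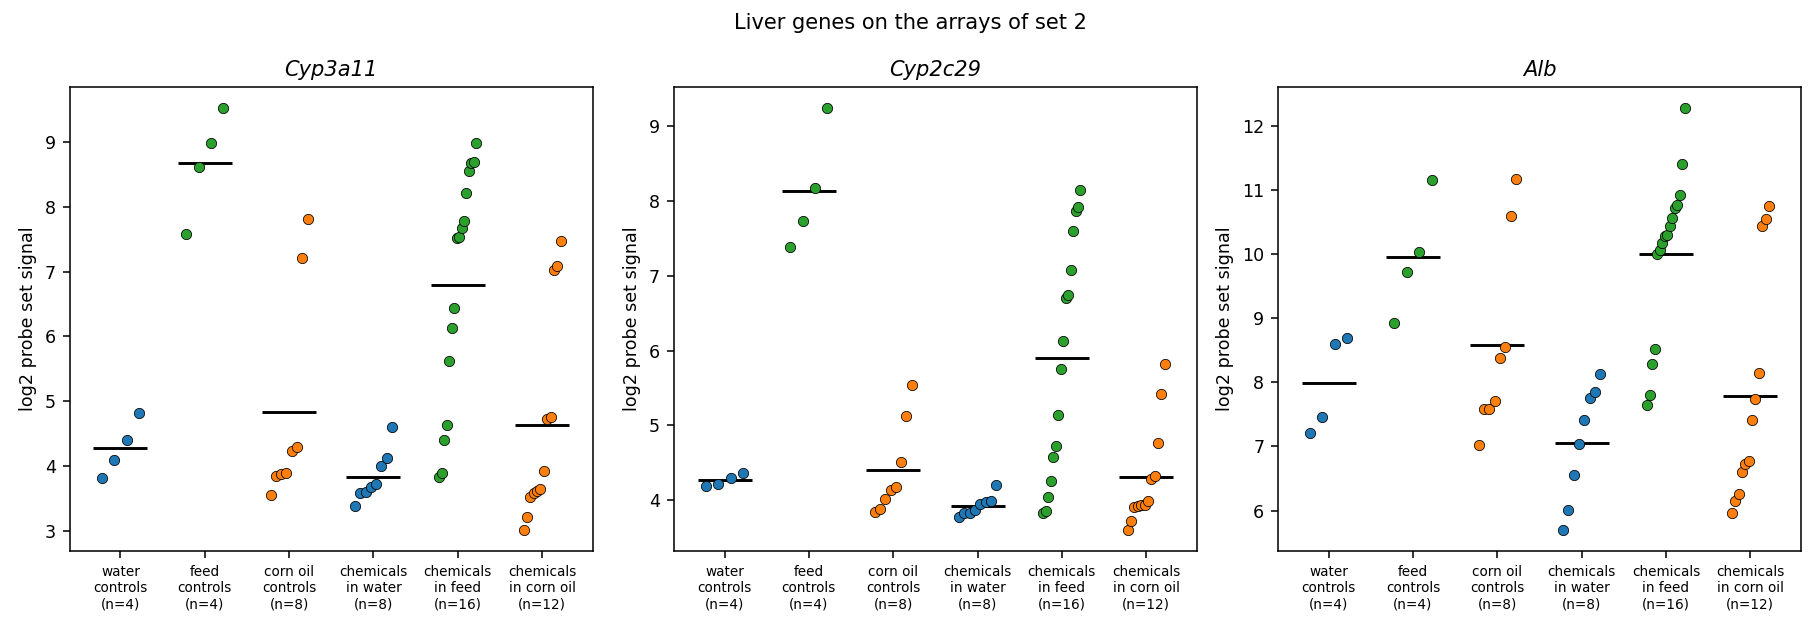
Log2 probe set signal of Cyp3a11, Cyp2c29 and Alb on each array of set 2 (points), by control group and by vehicle of the chemical groups, with group means as bars. All 4 feed controls lie above all 4 water controls for each gene, and 5 corn oil gavage arrays and 12 arrays of chemicals in feed reach the Alb level of feed controls, with Cyp2c29 at 5.82 or less on all 5 and on 4 of the 12.

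Apart from the P450 genes, the 15 largest falls without overlap between the groups included Lysmd3, Acbd5, Yme1l1, Fam126b, Slco4c1, Scfd1, Pkn2, Ccdc88a, Fcho2, Megf9, Rasa1, Dnm1l and Mfap3l, with differences from -2.13 to -1.76. Several of these encode proteins of membrane traffic and organelles. Yme1l1 is a protease of the mitochondrial inner membrane, Dnm1l the dynamin that divides mitochondria, Acbd5 a peroxisomal acyl-CoA binding protein and Scfd1 a factor of transport between endoplasmic reticulum and Golgi. Yme1l1 signals were 5.03, 4.41, 5.18 and 5.03 in water controls and 7.60, 6.63, 6.64 and 6.69 in feed controls. The difference was -1.98 ± 0.32 (SE) with a limma adjusted p of 4.2e-05, and all 3 of its probe sets were called lower. Feed control 2-42 stood above the other feed controls for Yme1l1, and it was the highest feed control for all 13 of these genes. Water control 2-124 was the lowest water control for 12 of the 13. Acbd5 had a difference of -2.13 ± 0.32 (SE) on its brighter probe set, and 0.06 on the other. The size of other falls also depended on the processing. Over the settings tried, the smallest fall was -0.72 for Scfd1, -0.73 for Mfap3l and -0.76 for Dnm1l, but -1.59 for Lysmd3 and -1.37 for Pkn2. All 13 remained called without both 2-124 and 2-42, with differences from -1.64 to -1.32. They had been picked as the largest falls on arrays that this fit reuses, so the kept calls are no separate support.

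The 15 largest rises were smaller, between 0.87 and 1.24, and several belong to vessels, matrix and signalling. Ddit4, an inhibitor of mTORC1 induced by stress hormones and low oxygen, had signals of 8.56, 8.68, 8.51 and 9.29 in water controls and 6.98, 8.30, 6.84 and 7.98 in feed controls. Its difference was 1.24 ± 0.33 (SE, limma adjusted p = 0.00319), and feed control 2-43 came close to the lowest water control. Ltbp4, which anchors latent TGF-beta and guides elastic fibre assembly, had 10.79, 10.94, 10.66 and 10.20 in water controls and 9.42, 9.98, 9.43 and 9.75 in feed controls. That is a 2-fold difference of 1.00 ± 0.21 (SE, limma adjusted p = 0.000309). Lbh, a transcription cofactor of the developing limb and heart, was higher by 1.08 ± 0.20 (SE) and Snai1, a repressor of epithelial genes, by 0.98 ± 0.19 (SE). Klf2, the shear-stress factor of endothelium, was higher by 0.90 ± 0.24 (SE), Itga5, a fibronectin receptor subunit, by 0.91 ± 0.18 (SE), and Smad6, an inhibitor of BMP signalling, by 0.87 ± 0.19 (SE). Ndufa4l2 and Cox4i2, isoforms of respiratory chain subunits that are prominent in lung, were higher by 1.00 ± 0.18 and 0.87 ± 0.18 (SE). The others were Ajuba, Rbmxl2, Ctse, Kcnh2, Sf3a2 and Snorc. Snorc rested on 1 array: water control 2-127 was at 6.85 and the others at 4.64, 4.73 and 4.85, beside 4.28 to 4.57 in feed controls. Ddit4, Ajuba, Ctse and Klf2 were no longer called without both 2-124 and 2-42.

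**Figure D3:**
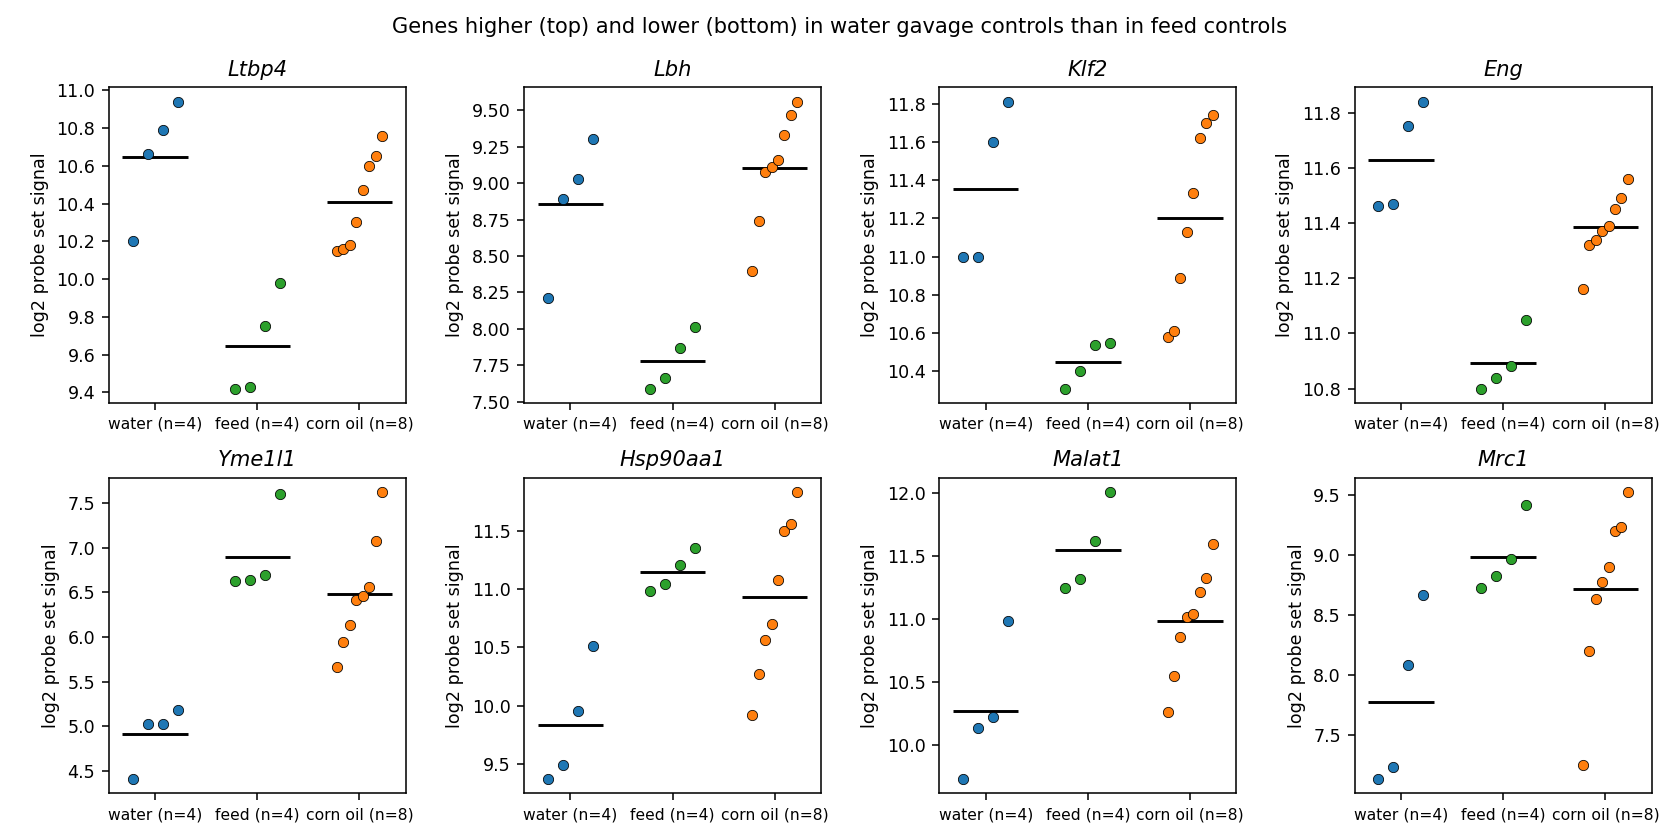
Log2 probe set signal on each array (points, with the group mean as a bar) for 4 genes higher and 4 genes lower in water controls, in the 4 water controls, 4 feed controls and 8 corn oil gavage controls of set 2. For Ltbp4, Lbh, Klf2 and Eng all 8 corn oil controls lie above the 4 feed controls, and for Yme1l1, Hsp90aa1, Malat1 and Mrc1 their means lie nearer to the feed controls than to the water controls.

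In 1 list of RNA processing genes many members were lower. The splicing factor gene Sf3a2, which is not on this list, was higher by 0.87 ± 0.13 (SE). Of 29 tested members of the list of nuclear-retained RNAs and splicing regulators, 17 were called lower and 0 higher, beside 18.2% of all genes called lower. The median difference of the list was -0.76. Malat1, an abundant RNA that stays in the nucleus at splicing speckles, had signals of 10.22, 9.73, 10.14 and 10.99 in water controls and 12.01, 11.25, 11.62 and 11.32 in feed controls. Its difference was -1.28 ± 0.26 (SE, limma adjusted p = 0.000255), with 3 of its 7 probe sets called lower and others as high as 0.16. Prpf4b, a kinase of splicing factors, was lower at -1.47 ± 0.32 (SE), Rbm25, a regulator of splice site choice, at -1.21 ± 0.26 (SE), Tra2a, a serine-arginine-rich splicing activator, at -1.03 ± 0.20 (SE), and Hnrnpa2b1, a packaging protein of nuclear RNA, at -0.80 ± 0.18 (SE). Over the settings tried, Tra2a lay between -1.13 and -0.29 and lost its call in 2 of 23. Without both 2-124 and 2-42, 5 members were called lower. With the 3' minus 5' difference as a covariate, 17 members were called lower, in the fit whose limit is given above.

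Of 18 heat shock chaperones 9 were called lower and 0 higher, beside 18.2% of all genes lower, and the median difference was -0.44. Water control 2-124 stood apart in this list: its mean log2 signal was 10.685, against 9.395 to 9.998 in the other water controls and 10.284 to 10.782 in feed controls. Hsp90aa1, the inducible cytosolic HSP90, had signals of 9.37, 9.95, 9.49 and 10.51 in water controls and 11.35, 11.21, 10.98 and 11.04 in feed controls. The groups did not overlap, and the difference was -1.32 ± 0.29 (SE, limma adjusted p = 0.000536), with all 3 probe sets called lower. Hspa4l, a nucleotide exchange factor for HSP70, was lower at -1.76 ± 0.43 (SE), Dnajb4, an HSP40 co-chaperone, at -1.34 ± 0.30 (SE) and Hspd1, the mitochondrial chaperonin, at -0.95 ± 0.24 (SE). The strictly heat-inducible Hspa1a and Hspa1b were not called, with differences of 0.18 and -0.74. Without both 2-124 and 2-42, 11 chaperones were called lower.

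Endothelial markers held more rises than falls. Of 21 tested, 10 were called higher and 3 lower, beside 15.5% and 18.2% of all genes, and the median difference was 0.29. Eng, a co-receptor for BMP ligands on endothelium, had signals of 11.84, 11.75, 11.46 and 11.47 in water controls and 10.80, 10.84, 11.05 and 10.88 in feed controls. All water values lay above all feed values, with a difference of 0.74 ± 0.14 (SE, limma adjusted p = 0.000109). Plvap, of the diaphragms of fenestrae and caveolae, was higher by 0.66 ± 0.15 (SE), Tie1, an orphan receptor of the angiopoietin system, by 0.59 ± 0.13 (SE) and Esam, a junction protein, by 0.38 ± 0.09 (SE). Ednrb, an endothelin receptor of lung capillaries, went the other way, at -0.57 ± 0.15 (SE, limma adjusted p = 0.00269). Without 2-124 the count of endothelial markers called higher was 4, without 2-42 it was 5, without 2-43 it was 6, and without both 2-124 and 2-42 it was 3.

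Matrix genes moved both ways. Of 15 elastic fibre genes 7 were called higher and 2 lower, beside 15.5% and 18.2% of all genes, with a median difference of 0.33. Beside Ltbp4, the microfibril genes Emilin1 and Mfap2 were higher by 0.60 ± 0.14 and 0.52 ± 0.13 (SE), while Lox, which cross-links elastin and collagen, was lower at -1.23 ± 0.38 (SE, limma adjusted p = 0.0107). Of 22 collagens and their partners 7 were called higher and 3 lower, with a median difference of 0.24. In both lists the share called lower was below that of all genes. Basement membrane Col4a2 and microfibrillar Col6a2 were higher by 0.55 ± 0.13 and 0.57 ± 0.14 (SE), and Bgn, the proteoglycan biglycan, by 0.45 ± 0.10 (SE). Col4a3, of the alveolar basement membrane, was lower at -0.82 ± 0.18 (SE). Postn, the matrix protein periostin, was lower at -1.56 ± 0.37 (SE), with water values of 7.46, 7.22, 7.39 and 8.77 and feed values of 9.91, 8.82, 9.01 and 9.34. Water control 2-129 lay just below the lowest feed control. Without 2-124 the count of genes called higher was 4 in each of these lists, and without both 2-124 and 2-42 it was 2 for elastic fibre genes and 0 for collagens.

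Ciliated cell and macrophage markers held more falls than rises. Of 16 club and secretory cell markers 1 was called lower and 0 higher, with a median difference of -0.02. Of 23 ciliated cell markers 7 were called lower and 0 higher, beside 18.2% of all genes lower, with a median difference of -0.24, and the count was 2 without 2-42, 3 without 2-121 or without 2-124, and 4 without 2-43. Rsph4a, of the radial spokes of cilia, had water values of 4.44, 4.62, 5.71 and 5.91 and feed values of 7.15, 6.44, 5.70 and 6.51. Water controls 2-127 and 2-129 overlapped feed control 2-44, and the difference was -1.28 ± 0.37 (SE, limma adjusted p = 0.00619). Foxj1, the master factor of ciliogenesis, was not called, with a difference of 0.02. Of 15 alveolar macrophage markers 5 were called lower and 0 higher, beside the same 18.2%, with a median difference of -0.22, and without 2-121, 2-124 or 2-42 the count was 3. Mrc1, the mannose receptor, had water values of 7.23, 7.13, 8.08 and 8.66 and feed values of 9.41, 8.72, 8.82 and 8.96. Its difference was -1.20 ± 0.31 (SE, limma adjusted p = 0.00252). Pparg, the factor that maintains alveolar macrophages, was lower at -0.45 ± 0.13 (SE), Atp6v0d2, a subunit of the vacuolar proton pump, at -1.45 ± 0.29 (SE) and Fabp1, a fatty acid binding protein that is also abundant in liver, at -0.89 ± 0.30 (SE). The macrophage receptor Marco was not called, with a difference of -0.10. On the log2 scale the mean signal over the alveolar macrophage markers was 8.96 to 9.28 in water controls and 9.44 to 9.63 in feed controls, which do not overlap.

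Lymphocyte, antigen presentation and early response genes moved both ways. Of 22 T and NK cell markers 6 were called higher and 1 lower, beside 15.5% and 18.2% of all genes. Cd3e, a chain of the T cell receptor complex, was higher by 0.49 ± 0.11 (SE) and Ccl5, a chemokine of cytotoxic cells, by 0.79 ± 0.25 (SE), while Il7r, the interleukin-7 receptor, was lower at -1.05 ± 0.30 (SE). Of 13 genes of dendritic cells and class II antigen presentation 5 were called higher and 0 lower, with Cd74, the invariant chain, higher by 0.33 ± 0.10 (SE) and H2-Ab1 by 0.31 ± 0.11 (SE). The count of class II genes called higher ran from 0 (without 2-127) to 5 (without 2-129 or 2-43) as single arrays were left out. Of 27 immediate early genes 7 were called higher and 3 lower. Jun, a subunit of AP-1, was higher by 0.68 ± 0.14 (SE) and Rhob, a small GTPase, by 0.55 ± 0.13 (SE), whereas Klf6 was lower at -0.61 ± 0.12 (SE) and Ptgs2, the inducible cyclooxygenase, at -1.66 ± 0.42 (SE). Of 16 neutrophil markers and 8 erythroid markers 0 were called in limma. Of 18 glucocorticoid-induced genes 2 were called higher, Ddit4 among them, and 1 lower, both shares below those of all genes.

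Metabolic and stress pathways were mixed, and most of their shares were near the 15.5% called higher and 18.2% called lower among all genes. Of 6 AhR targets 4 were called lower: Tiparp and Nfe2l2, at -0.87 ± 0.20 and -0.74 ± 0.17 (SE), Cyp1b1, and Cyp1a2, a liver P450, at -1.03 ± 0.36 (SE). Cyp1a2 had a limma adjusted p of 0.0243, which was 0.224 with the level of Alb as a covariate, and 0.19 without feed control 2-43. Of 23 phase I enzymes 6 were called lower and 0 higher, and the median difference was -0.02. Of 24 genes of cholesterol and fatty acid synthesis 5 were called higher and 2 lower. Fasn, fatty acid synthase, was higher by 0.65 ± 0.13 (SE) and Srebf2, the sterol sensor's transcription factor, by 0.49 ± 0.11 (SE), while its targets Idi1 and Hmgcs1 were lower at -1.04 ± 0.22 and -0.87 ± 0.22 (SE). Of 23 interferon response genes 1 was called higher and 4 lower, with Ifit1 and Ifit2, antiviral RNA-binding proteins, lower at -1.11 ± 0.29 and -1.10 ± 0.28 (SE). Of 22 p53 targets 4 were called higher and 5 lower, the lowest being Ccng1, cyclin G1, at -1.53 ± 0.25 (SE). The clock gene Clock was lower at -0.85 ± 0.21 (SE) and Nr1d2, a nuclear receptor of the clock, at -1.44 ± 0.47 (SE). Nr1d2 signals in water controls were 6.89, 6.93, 8.32 and 9.66, so water control 2-129 lay within the feed range of 8.95 to 9.70. The time of day at which animals were killed was not known here.

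**Figure D4:**
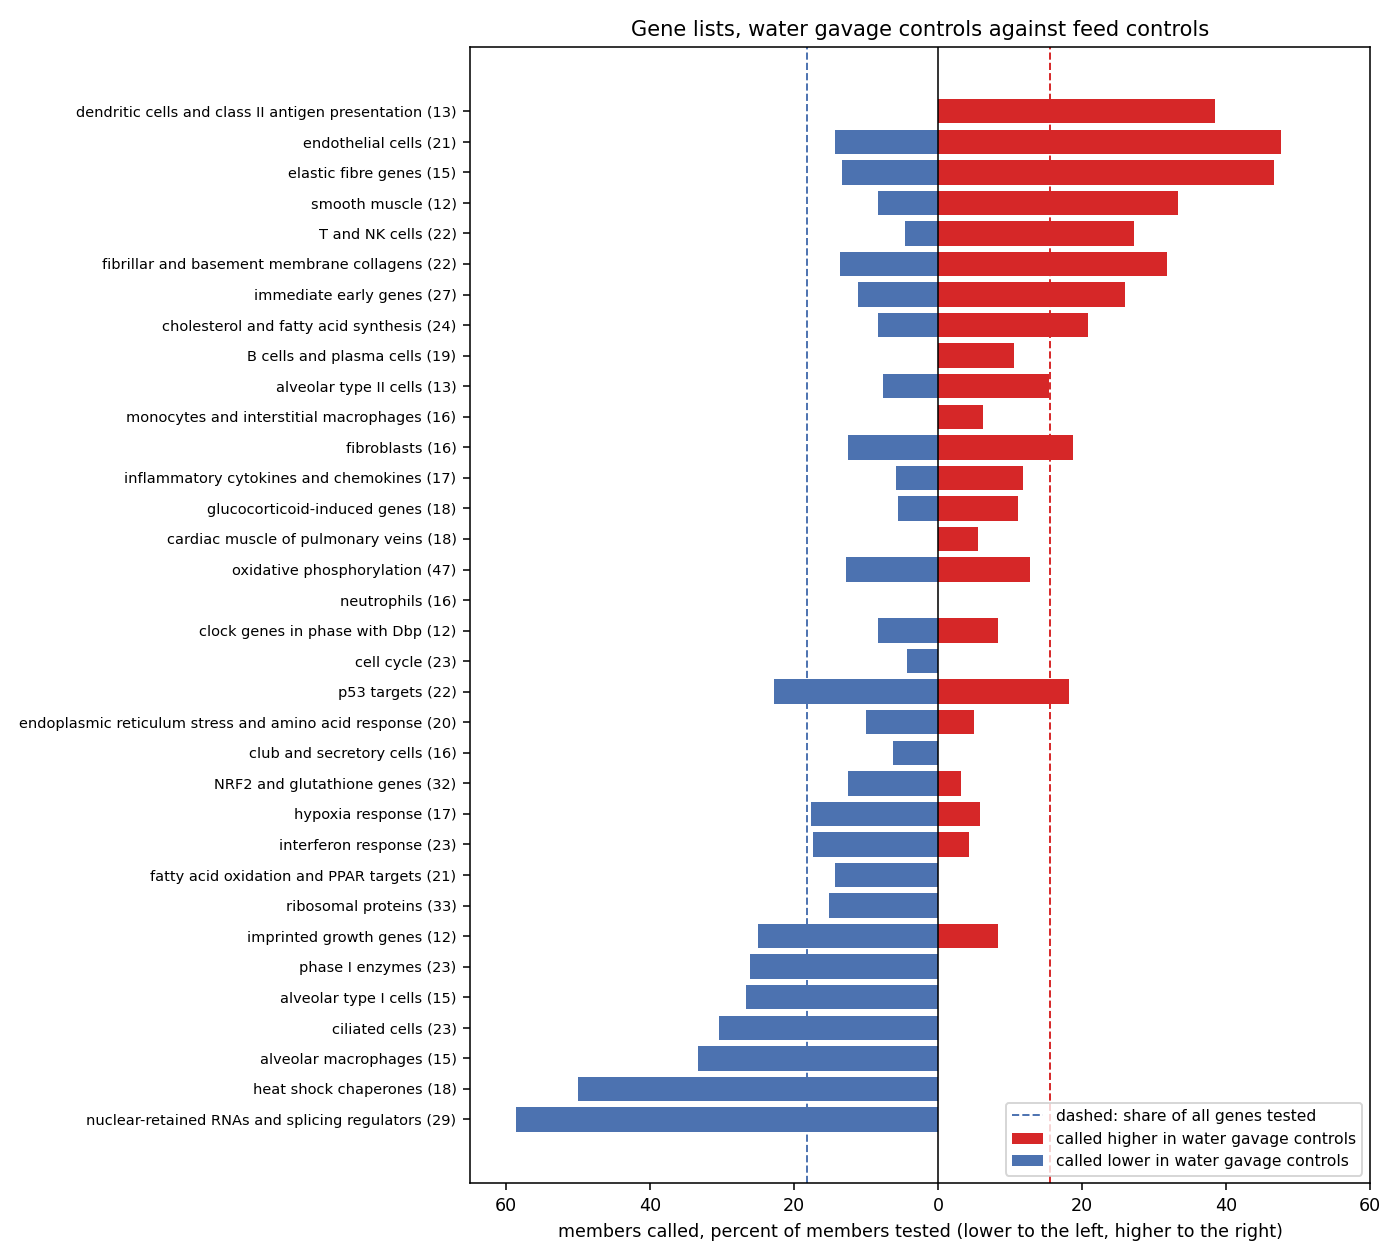
Share of the tested members of each gene list with 12 or more tested members that was called higher (right) or lower (left) in water controls than in feed controls; the number tested stands in brackets, and dashed lines mark the 15.5% and 18.2% of all genes tested. The list of nuclear-retained RNAs and splicing regulators lies farthest to the left, with 17 of 29 called lower, and the endothelial list farthest to the right, with 10 of 21 called higher.

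The genes called lower spanned more of the genome. The span of the gene in the RefSeq annotation had a median of 43.1 kb for called lower genes, 17.1 kb for called higher genes and 21.7 kb for all genes tested. Most other probe sets of the called genes pointed the same way: of 4871 such probe sets 83.9% had the sign of the gene. For 74 genes another probe set was called in the opposite direction. These probe sets were read on the same arrays, so they are no separate support. With the mean of all probe sets of a gene, 5070 genes were called, 2753 higher and 2317 lower, so the balance of directions changed.

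The corn oil gavage controls of set 2 received 5 ml/kg on 5 days per week, so they share the route and schedule of the water controls. Water controls differed from the 8 corn oil gavage controls in 3340 genes (22.9%), 1551 higher and 1789 lower, and the limma count was 0 when only these 2 groups were fitted (3522 genes at an unadjusted p under 0.05). Corn oil minus feed gave 505 calls, 244 higher and 261 lower. These comparisons share the water controls or the feed controls with the main one, so their values are given side by side only. For Lbh the difference from feed controls was 1.08 with water and 1.32 with corn oil, and for Itga5 it was 0.91 and 0.98. For Ltbp4 it was 1.00 and 0.76, and for Eng 0.74 and 0.49. Among the falls, some were close with both vehicles: Cyp3a11 was -4.40 with water and -3.84 with corn oil, Cyp2c29 was -3.87 and -3.73, Gstm3 was -1.20 and -1.23 and Pparg was -0.45 and -0.40. Others were not: Yme1l1 was -1.98 with water and -0.41 with corn oil, and Hsp90aa1 was -1.32 and -0.22. The 13 other largest falls lay between -0.71 and -0.20 with corn oil, and water minus corn oil was called for each of them (limma adjusted p from 6.11e-05 for Acbd5 to 0.00778 for Ccdc88a). Water minus corn oil was -1.57 ± 0.28 for Yme1l1 (limma adjusted p = 0.000137) and -1.10 ± 0.25 (SE) for Hsp90aa1 (limma adjusted p = 0.00187). Of the 29 splicing and nuclear RNA genes 15 were lower in water than in corn oil controls, beside 12.3% of all genes, and of the 21 endothelial markers 1 was higher and 5 were lower, beside 10.6% and 12.3%.

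Animals that share no array with the controls offer the same contrast of route. Set 2 held 8 arrays of chemicals in water gavage (N-methylolacrylamide at 50 mg/kg and 2-chloromethylpyridine hydrochloride at 250 mg/kg, 4 each). It held 16 arrays of chemicals in feed (4-nitroanthranilic acid at 10000 ppm, 2,2-bis(bromomethyl)-1,3-propanediol at 1250 ppm, malathion at 16000 ppm and diazinon at 200 ppm, 4 each). Chemical and route cannot be told apart in this contrast. It called 3223 genes (22.1%), 1520 higher (10.4%) and 1703 lower (11.7%). The count was 1211 with the RNA amount as a block within set 2, and 1791 to 3427 with single arrays left out. Of the genes higher in water controls 31.2% were also higher in the chemical contrast, which is 46.5% of its higher genes. Of the genes lower in water controls 18% were also lower in the chemical contrast, which is 28.1% of its lower genes. Opposite calls were made for 3 and 5 genes. The difference between the contrasts was called for 292 of the genes higher in water controls (12.9%) and for 1225 of the genes lower (46.1%), beside 11.3% of all genes. These genes were selected by the control difference, which is part of the difference tested, so the shares are not set against each other.

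The liver genes differed in the chemical contrast as well, where chemical and route cannot be told apart. Some feed arrays were as low as those of water gavage. The lowest Cyp3a11 signal was 3.82 with malathion, 3.90 with diazinon, 4.63 with 2,2-bis(bromomethyl)-1,3-propanediol and 7.54 with 4-nitroanthranilic acid. With chemicals in water gavage the highest was 4.60. Cyp3a11 was lower at -2.95 ± 0.53 (SE, limma adjusted p = 0.000265) in water gavage and Cyp2c29 at -1.97 ± 0.35 (SE, limma adjusted p = 0.000224), and the difference of the differences was not called for either (limma adjusted p = 0.347 and 0.0517). Alb was lower at -2.96 ± 0.52 (SE), and 8 of the 10 hepatocyte markers were called lower, beside 11.7% of all genes. Endothelial markers were called higher in 6 of 21 cases and lower in 0, beside 10.4%. Eng was higher by 0.53 ± 0.08 (SE), Lbh by 0.76 ± 0.12 (SE), Ltbp4 by 0.66 ± 0.13 (SE) and Snai1 by 0.84 ± 0.12 (SE). Of the splicing and nuclear RNA list 2 of 29 were called lower, its median was 0.00, and the difference of the differences was called for 12 of its genes. Heat shock chaperones were called lower in 1 of 18 cases, with a median of 0.04, and the difference of the differences was called for 6. Over all genes tested it was called for 11.3%. Both lists stood out by their control difference, which is part of the difference tested. Their counts of 12 and 6 are therefore not set against that share. Malat1, at -0.54 ± 0.16 (SE, limma adjusted p = 0.0135), was among the members lower in both contrasts.

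**Figure D5:**
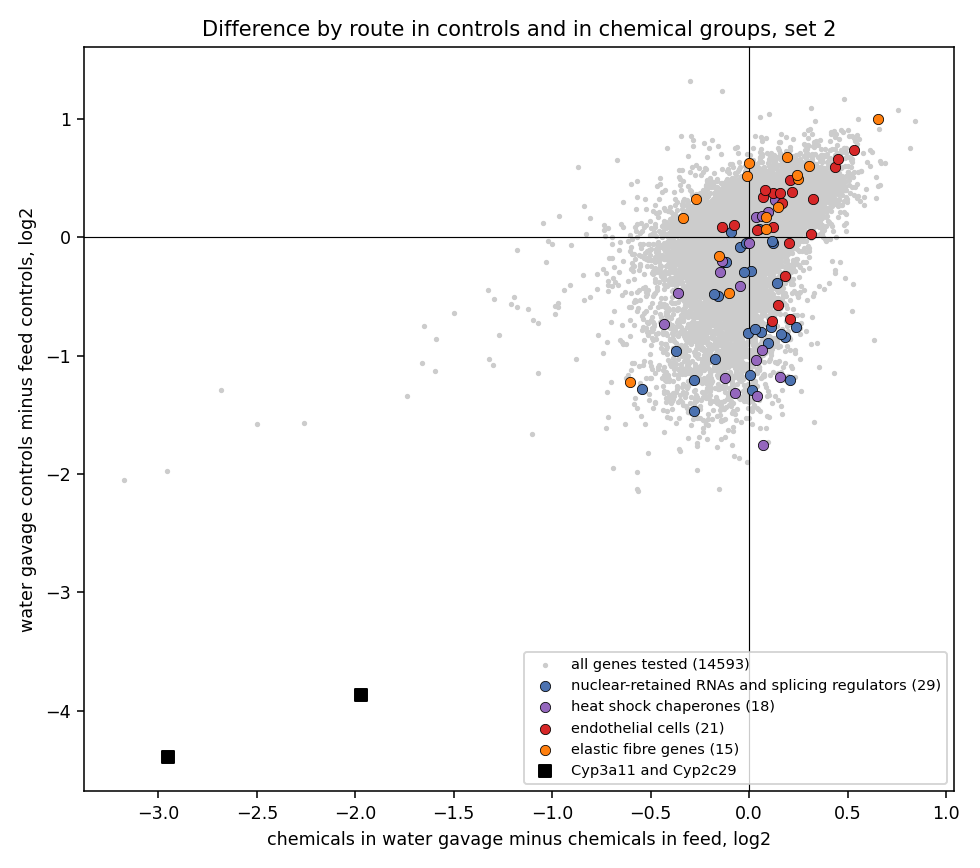
Log2 difference of each gene tested in water controls minus feed controls (vertical) against chemicals in water gavage minus chemicals in feed (horizontal), with the members of 4 gene lists and the 2 P450 genes marked. Cyp3a11 and Cyp2c29 lie at -4.40 and -3.87 in controls and at -2.95 and -1.97 in the chemical groups, while most splicing and chaperone genes lie below 0 in controls and around 0 in the chemical groups.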

How the data were processed

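RNA of 70 right lung lobes was measured on 1 array each, and 8 of these arrays form the comparison. The authors deposited log2 probe set signals (2.47 to 14.53, array medians of set 2 from 5.41 to 5.52); their summarization and normalization are not given in the sources used here. Of 45101 probe sets, 34945 had 1 gene symbol in the platform annotation, and 18032 symbols were taken from RefSeq by Entrez identifier. Each gene was read from its brightest probe set, and the 14593 of 18193 genes with a mean above the 30th percentile (4.25) were tested. limma 3.58.1 in R 4.3.3 was fitted to all 70 arrays with 18 group means, called at a Benjamini-Hochberg adjusted p under 0.05, and was tested on simulated data. The number of arrays limits the precision. The labels name separate animals, and no control arrays were identical (highest correlation 0.995).

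Named genes were the 15 largest rises and 15 largest falls without overlap, and up to 6 called members of each of 47 lists with the smallest p (833 of 920 entries matched). Alb, Fga, Apoa2, Sftpb, Foxj1, Marco, Hspa1a and Hspa1b stand outside this rule and were named after their values were seen. The comparison and the lists were chosen with earlier results of these data known. Alternatives covered the filter, probe sets, scaling, arrays in the fit, RNA amount, RNA integrity and single arrays. The fits without 2-124 and 2-42 and with Alb as a covariate were chosen after seeing the data.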

Additional observations from a re-analysis of the deposited data

Results flagged for a closer look

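Single arrays stood apart from the others of their group in 14 of 267 groups of values tested with Dixon's criterion, and chance flags about 1 in 20 groups. Feed control 2-42 accounted for 7 of them, each time above the other feed controls: Yme1l1 at 7.60, Pkn2 at 8.34, Rasa1 at 7.84, Il7r at 7.01, the cyclin G1 gene Ccng1 at 9.46, the circadian factor Clock at 8.64 and Akap5, a kinase anchoring protein, at 10.06. Among water controls, 2-124 was low for the organic anion carrier Slco4c1 at 4.16 and high for Rbmxl2 at 7.43. Array 2-127 was high for Snorc at 6.85, and 2-121 was low for Il7r at 4.68. Array 2-129 was nearer to the feed controls than the other water controls for Postn at 8.77 and Fasn at 10.75. The 3' minus 5' difference of corn oil control 2-99 was high at 0.339.

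For 42 of 88 genes the difference of water minus feed in controls was not the same as in the chemical groups, by a test of the difference itself in limma (adjusted p from 0.011 to 0.0468). Over all genes tested the share called was 11.3%. Most of the 88 genes were chosen by their control difference, which is part of the difference tested. The shares are therefore not set against each other. The values that follow are the control difference minus the chemical difference on the log2 scale. Among the largest falls they were -1.98 for Lysmd3, -1.56 for Acbd5, -1.41 for Yme1l1, -1.70 for Fam126b, -1.26 for Slco4c1, -1.88 for Scfd1 and -1.82 for Pkn2. They were -1.77 for Ccdc88a, -1.31 for Fcho2, -1.45 for Megf9, -1.43 for Rasa1, -1.61 for Dnm1l and -1.50 for Mfap3l. Among the largest rises they were 1.37 for Ddit4 and 0.55 for Sf3a2. Splicing genes had -0.85 for Tra2a, -1.19 for Prpf4b, -0.92 for Rbm25 and -0.86 for Hnrnpa2b1, and chaperones had -1.25 for Hsp90aa1, -1.38 for Dnajb4, -1.83 for Hspa4l and -1.02 for Hspd1. Vessel, matrix and epithelial genes had -0.72 for Ednrb, 0.53 for Mfap2, -0.82 for Col4a3, -1.89 for Postn and -0.97 for Akap5. Early response and macrophage genes had -0.44 for Klf6, 0.50 for Jun, 0.46 for Rhob, -1.20 for Atp6v0d2 and -1.07 for Mrc1. Stress, interferon and metabolic genes had -0.70 for Nfe2l2, -1.07 for Gstm3, -1.45 for Ifit2, -1.04 for Ifit1, 0.52 for Fasn, -0.89 for Idi1 and -0.81 for Hmgcs1. Ccng1 had -1.26 and Clock -0.74.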

How the results depend on the processing

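Beside the settings given with the results, the count of 4924 genes lay between 3066 and 5554 when single arrays were left out, and was 7584 with array weights and 3629 with Alb as a covariate; without 2-124 and 2-42 it was 1340 and with 15 ul only it was 2. All 4924 genes kept their sign in each fit to the same gene values. They had been called on arrays that these fits reuse, so the kept signs are no separate support. With 15 ul only, 0 members were called of the endothelial, elastic fibre, collagen, splicing, heat shock, alveolar macrophage and ciliated lists. Without 2-124 and 2-42 the counts were 3 endothelial, 2 elastic fibre and 0 collagen genes higher. In the same fit 5 splicing, 11 heat shock, 2 macrophage and 0 ciliated genes were lower. Endothelial genes called higher were 6 when only the compared arrays were fitted and 6 with Alb as a covariate. Collagens called higher were 12 with array weights. Ciliated genes called lower were 2 with the amount as a block and 2 with Alb as a covariate. With single arrays left out, the ranges were 4 to 10 endothelial, 4 to 8 elastic fibre, 4 to 10 collagen, 13 to 19 splicing, 6 to 11 heat shock, 3 to 6 macrophage and 2 to 9 ciliated genes. The water minus corn oil count of 3340 was 0 with only the compared arrays (3522 at an unadjusted p under 0.05 in limma) and 1032 (without 2-124) to 5087 (without corn oil control 2-132) with single arrays left out. The chemical contrast of 3223 genes was 4843 with only the compared arrays, 5925 with array weights, 1211 with the amount as a block and 1791 to 3427 with single arrays left out; with 15 ul only it could not be fitted, since 1 of its groups held 10 ul arrays only. The 3' minus 5' difference lay between -0.198 and -0.135 with single arrays left out. Its exact permutation p was 0.0286 without any single feed control and 0.0571, no longer under 0.05, without any single water control. Over the 88 genes and their settings, 1840 values kept their direction and call, 167 lost the call, 6 gained one and Apoa2 reversed, to 0.04 with Alb as a covariate; 83 genes lost the call with 15 ul only and 32 without 2-124 and 2-42. The causes were not tested. No paired analysis was possible because each identifier names a different animal.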

Other observations

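Some lists were not described above. Of 18 cardiac muscle genes of the pulmonary veins 1 was called higher, with a median difference of 0.41. Of 12 smooth muscle genes 4 were called higher and 1 lower, beside 15.5% and 18.2% of all genes, with a median of 0.38. Of 16 fibroblast markers 3 were called higher, among them Fbln1, a matrix protein of elastic fibres and basement membranes, at 0.68, and 2 lower. Of 19 B cell and plasma cell markers 2 were called higher and 0 lower. Of 47 genes of oxidative phosphorylation 6 were called higher and 6 lower, and of 33 ribosomal protein genes 0 higher and 5 lower. In the 3 corn oil controls of set 1, Cyp3a11 lay between 3.50 and 3.82 and Alb between 5.10 and 5.61, and in the 3 feed controls of set 1 Alb lay between 5.02 and 5.75, below all 8 control arrays compared here.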
